A study of Mus musculus with 4 samples.

Results

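Mutations in the human counterparts of *Sod1*, *Tardbp*, *Vcp*, *Optn*, *Tbk1*, *Smn1* and *Hnrnpa2b1* cause or are linked to diseases in which motor neurons (MNs) degenerate, and the RNA of these 7 genes was followed in mouse MNs with and without PATZ1. The genes were taken by symbol as mouse orthologs of genes of amyotrophic lateral sclerosis (ALS) and spinal muscular atrophy (SMA), by a rule that uses no measured value but was written with earlier results of these libraries known. Each symbol occurred in all 4 count files, which held 23420 symbols, and all 7 were among the 14269 genes with enough counts to be tested. The cells were cervical MNs made from E14, a mouse embryonic stem cell line. One group was wild type (WT) and the other was *Patz1* -/- (*Patz1* KO), made from E14 by CRISPR/Cas9, with 2 libraries per genotype. PATZ1 is a zinc finger protein that the study examined as an insulation factor. Embryoid bodies of both genotypes received 1 µM retinoic acid and 0.5 µM smoothened agonist on day 2 to pattern them into cervical MNs. Several KO clones were made, and the clone behind each library is not named in the labels. The titles of the samples name stem cells, whereas their source and cell type name MNs.

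The study describes its replicates as biological. The libraries were stranded and made from total RNA after removal of ribosomal RNA. Total counts were 14769104 and 15728158 in WT and 23881522 and 17402342 in *Patz1* KO. Reads of *Rn45s*, *Rpph1* and *Rmrp*, all non-coding, made up 9.65% of the counts in *Patz1* KO replicate 2 and 6.33% to 6.81% in the other libraries. Replicates varied by more than sampling noise, and chi-square divided by the number of genes came to 10.5 for WT and 23.4 for *Patz1* KO. Both values were taken without correction for RNA composition and grow with counts, so the genotypes are not compared at equal depth. Levels are given as CPM, a gene's count relative to the total count of its library after TMM scaling, which corrects for RNA composition. *Patz1* was at 91.5 and 94.3 CPM in WT and at 47.6 and 42.6 CPM in *Patz1* KO. It fell by 1.04 on the log2 scale (SE 0.0951, adjusted p = 1.10e-07, edgeR), to 0.486 of WT, and both KO libraries were below both WT libraries. Part of the RNA thus remained. The paper reports by western blot that PATZ1 protein was lost in its *Patz1* KO stem cell lines. Protein was not measured here. EdgeR's quasi-likelihood test, its p values adjusted by the Benjamini-Hochberg method over all genes, called 6836 of the 14269 genes at an adjusted p of 0.05, or 47.9%. Without WT replicate 2 this number was 4521.

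TDP-43, the product of *Tardbp*, and hnRNP A2/B1 bind RNA in the nucleus and control its splicing and transport, and TDP-43 aggregates in the cytoplasm of MNs in most patients with ALS. SMN, the product of *Smn1*, is the core of a complex that loads Sm proteins onto spliceosomal small nuclear RNAs, and its shortage causes SMA. SOD1 removes superoxide in the cytosol. Optineurin carries ubiquitinated cargo to autophagosomes after phosphorylation by the kinase TBK1, and VCP is an ATPase that pulls ubiquitinated proteins out of complexes and membranes.

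The bases before annotated transcription starts of the genes that passed the test are shown as a description. Counts per gene do not tell which start was used, and PATZ1 binding at these starts was not examined here. RefSeq promoter sequences on GRCm38.p6 were matched for 7 of the 7 genes. Each line gives the 250 bases upstream of the start, 5′ to 3′ on the gene's strand, with every GC box (GGGCGG or its complement CCGCCC) in capitals. The positions were chr4:148626997-148627246 on the minus strand for *Tardbp*, chr13:100124605-100124854 on the plus strand for *Smn1*, chr16:90220512-90220761 on the plus strand for *Sod1* and chr2:5064118-5064367 on the minus strand for *Optn*. *Smn1* has 2 starts in RefSeq, and the one next to the annotated gene start is shown.
Tardbp: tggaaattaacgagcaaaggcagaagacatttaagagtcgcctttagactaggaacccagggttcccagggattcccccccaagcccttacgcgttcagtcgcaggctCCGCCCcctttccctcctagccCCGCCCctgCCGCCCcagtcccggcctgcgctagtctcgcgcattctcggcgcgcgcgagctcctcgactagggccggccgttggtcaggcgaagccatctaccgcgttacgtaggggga
Smn1: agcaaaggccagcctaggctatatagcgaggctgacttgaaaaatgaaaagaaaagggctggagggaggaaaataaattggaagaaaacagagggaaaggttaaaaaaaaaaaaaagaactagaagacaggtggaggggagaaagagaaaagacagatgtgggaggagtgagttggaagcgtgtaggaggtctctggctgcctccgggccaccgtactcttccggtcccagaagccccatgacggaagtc
Sod1: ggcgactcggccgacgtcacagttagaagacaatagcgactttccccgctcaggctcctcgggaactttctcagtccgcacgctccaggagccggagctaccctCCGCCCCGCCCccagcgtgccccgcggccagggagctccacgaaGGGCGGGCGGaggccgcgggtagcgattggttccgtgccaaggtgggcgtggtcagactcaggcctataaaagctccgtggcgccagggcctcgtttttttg
Optn: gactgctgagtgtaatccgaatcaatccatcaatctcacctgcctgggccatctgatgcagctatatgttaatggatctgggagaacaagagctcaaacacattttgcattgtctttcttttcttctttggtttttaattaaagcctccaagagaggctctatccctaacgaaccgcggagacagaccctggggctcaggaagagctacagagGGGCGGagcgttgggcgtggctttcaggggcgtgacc

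GC boxes stood upstream of *Tardbp*, *Sod1*, *Optn* and *Tbk1*, and none was found upstream of *Smn1*, *Vcp* or *Hnrnpa2b1*. Over all 32851 RefSeq promoters, 32.7% of such 250-base stretches held one on either strand. The *Tardbp* stretch held 3 on the reverse strand, *Sod1* held 2 on each strand with adjacent ones overlapping, and *Optn* held 1. *Tbk1*, which did not pass the test, also held 3. Base composition differed, with 63.6% G and C for *Tardbp*, 66.4% for *Sod1*, 50% for *Optn* and 48.4% for *Smn1*, beside a median of 52.4% over all promoters. The G-rich core GGGAGGG, of the kind bound by the related factor MAZ, or its complement CCCTCCC occurred in 19.7% of all promoters and in 0 of the stretches of the 7 genes. These matches are letters in a window and were not tested as binding sites.

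Of the 7 genes, 3 fell in *Patz1* KO MNs (*Tardbp*, *Smn1* and *Sod1*), 1 rose (*Optn*) and 3 did not pass the test (*Hnrnpa2b1*, *Vcp* and *Tbk1*). The 4 that passed are 57.1% of the genes, beside 47.9% of all genes tested. Genes lower in *Patz1* KO made up 23.8% of all genes and genes higher made up 24.1%, so that either direction was about equally common. The genotypes did not overlap for 5 of the 7 genes (71.4%), beside 74.2% of all genes. The median log2 fold change of the 7 genes was -0.23, beside -0.0014 over all genes. Their median absolute change of 0.32 was close to the 0.34 of all genes. The plot of levels by library shows these values.

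**Figure D1:**
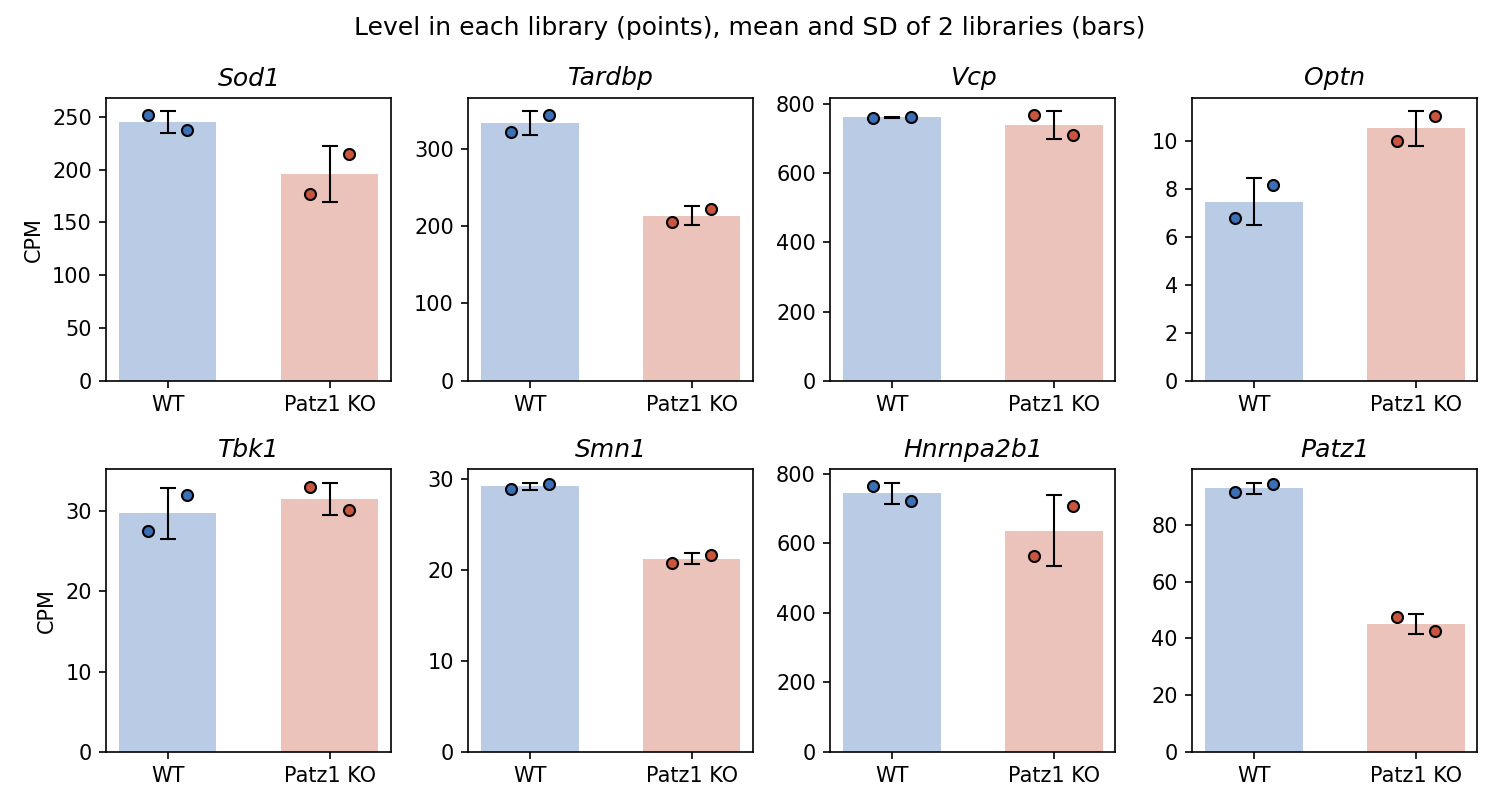
Level of each of the 7 genes and of *Patz1* in CPM (vertical axes, linear and starting at 0) in WT and *Patz1* KO MNs, with 1 point per library, bars for the mean and error bars for the SD of 2 libraries. *Tardbp*, *Smn1* and *Patz1* are lower in both KO libraries with little spread, *Optn* is higher, and the KO libraries of *Sod1* and *Hnrnpa2b1* stand apart from each other.

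*Tardbp*, the gene of TDP-43, showed the largest change of the 7. Its 30 annotated transcripts span chr4:148612382-148627019 on the minus strand of GRCm38. The 2 WT libraries held 4806 and 5474 counts, against 4967 and 3739 for the KO libraries, and the levels were 323 and 344 CPM against 205 and 223 CPM. The WT libraries were both above the KO libraries, with a gap far wider than the distance between replicates. Its mean was 333 ± 15.3 CPM in WT and 214 ± 12.7 CPM in *Patz1* KO (SD, n = 2). It fell by 0.64 on the log2 scale (SE 0.0918, adjusted p = 1.84e-05, edgeR), to 0.641 of the WT level with a 95% interval of 0.561 to 0.733. The size of this change exceeded that of 73.6% of all genes tested.

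The exons of *Tardbp* overlap those of *Masp2*, a complement protease gene on the other strand, over 1817 bases or 23.3% of its exon length. *Masp2* had 7, 5, 16 and 7 counts in the 4 libraries and was too low to be tested. The strand setting of the counting is not given in the sources used here.

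*Hnrnpa2b1*, at chr6:51460932-51469894 on the minus strand, was the second most counted of the 7 genes over all libraries. Counts were 11407 and 11483 for WT against 13667 and 11895 for *Patz1* KO, which gave 766 and 722 CPM against 564 and 709 CPM. The first KO library was well below WT, whereas the second lay just under the lower WT library. The difference of -0.23 on the log2 scale did not pass the test (SE 0.117, 95% interval -0.47 to 0.02, adjusted p = 0.121, edgeR). Without *Patz1* KO replicate 2 the log2 fold change was -0.39, in a fit whose single KO library gives no spread within that genotype. With *Patz1* KO replicate 1 left out instead, it was -0.065.

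*Smn1*, the mouse SMN gene, lies at chr13:100124852-100137690 on the plus strand. The 2 WT libraries held 430 and 468 counts, against 504 and 363 for the KO libraries, and the levels were 28.9 and 29.4 CPM against 20.8 and 21.6 CPM. Replicates were close within each genotype, and the groups did not overlap. Its mean was 29.2 ± 0.400 CPM in WT and 21.2 ± 0.602 CPM in *Patz1* KO (SD, n = 2). It fell by 0.46 on the log2 scale (SE 0.111, adjusted p = 0.00238, edgeR), to 0.727 of WT with a 95% interval of 0.618 to 0.855. Counting error alone was 4.45% to 5.25% of the value in each library. None of its 50-base transcript stretches occurred in another annotated gene.

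*Sod1*, the gene of cytosolic superoxide dismutase, lies at chr16:90220754-90226329 on the plus strand. Counts were 3756 and 3778 for WT against 4293 and 3597 for *Patz1* KO, which gave 252 and 238 CPM against 177 and 214 CPM. Both KO libraries were below WT, and the second KO library was 1.21 times the first. The mean was 245 ± 10.3 CPM in WT and 196 ± 26.4 CPM in *Patz1* KO (SD, n = 2). *Sod1* fell by 0.32 on the log2 scale (SE 0.0980, adjusted p = 0.0112, edgeR), to 0.799 of WT with a 95% interval of 0.692 to 0.922. The call was lost without WT replicate 1 (log2 fold change -0.28, adjusted p = 0.140, edgeR) and without WT replicate 2 (-0.36, adjusted p = 0.0527). Without *Patz1* KO replicate 1 the log2 fold change was -0.19.

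*Optn*, the optineurin gene, was the only one of the 7 that rose. It lies at chr2:5020642-5064051 on the minus strand and was the least counted, at 101 and 130 counts for WT against 243 and 185 for *Patz1* KO. These are 6.78 and 8.18 CPM against 10.02 and 11.0 CPM, with both KO libraries above both WT libraries. It rose by 0.49 on the log2 scale (SE 0.173, adjusted p = 0.0271, edgeR), to 1.40 times WT with a 95% interval of 1.09 to 1.80. Counting error reached 9.95% of the value in a library, more than for any other of the 7 genes. The antisense gene *4930551O13Rik*, which covers 1.95% of its exon bases, has no count of its own in these data. The call was lost in DESeq2's Wald test (0.50, adjusted p = 0.113) and without WT replicate 1 (0.36, adjusted p = 0.251, edgeR).

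*Tbk1*, at chr10:121546455-121586787 on the minus strand, encodes the kinase that phosphorylates optineurin. The 2 WT libraries held 409 and 508 counts, against 798 and 505 for the KO libraries, and the levels were 27.5 and 32.0 CPM against 32.9 and 30.1 CPM. The groups overlapped, and the difference of 0.09 on the log2 scale did not pass the test (SE 0.112, adjusted p = 0.546, edgeR). Its 95% interval, -0.15 to 0.32, leaves room for changes of up to 1.25 times WT. Without WT replicate 1 the direction turned, to -0.017. A difference between the changes of *Optn* and *Tbk1* was not tested.

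*Vcp*, at chr4:42979963-43000507 on the minus strand, had the smallest difference between the genotypes. Counts were 11326 and 12140 for WT against 18601 and 11942 for *Patz1* KO, which gave 760 and 764 CPM against 767 and 712 CPM. The KO libraries lay on either side of WT. The difference was -0.04 on the log2 scale (SE 0.105, adjusted p = 0.761, edgeR), with an interval of -0.26 to 0.18 that allows 0.834 to 1.13 times the WT level. Without *Patz1* KO replicate 2 it was 0.016. Of its 50-base transcript stretches, 40.5% also occur in *Vcp-rs*, which has no count of its own in these data. How the counting divided such reads is not known. *1700022I11Rik* on the other strand covers 7.26% of its exon bases and had 10, 13, 10 and 5 counts in the 4 libraries (log2 fold change -1.02, adjusted p = 0.117, edgeR).

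**Figure D2:**
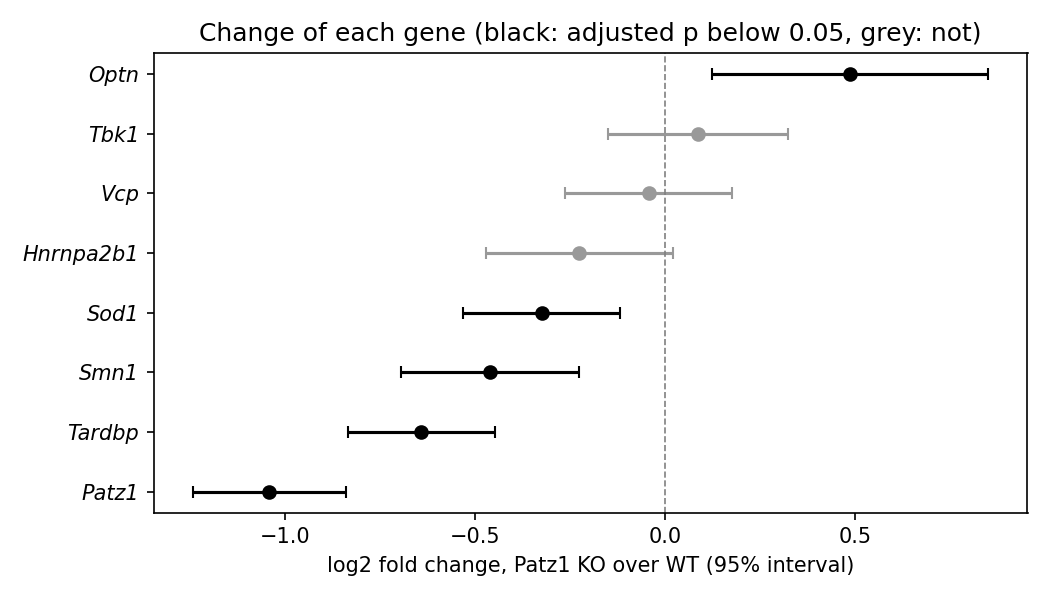
Log2 fold change of each gene, *Patz1* KO over WT (horizontal axis), with points for the edgeR estimate and bars for its 95% interval from 2 libraries per genotype; genes that passed an adjusted p of 0.05 are black and the others grey. The intervals of *Tardbp*, *Smn1*, *Sod1* and *Optn* leave out 0, and those of *Hnrnpa2b1*, *Vcp* and *Tbk1* include it.

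The direction and call of *Tardbp* and *Smn1* were the same in all 13 alternative settings. *Tardbp* went from -0.70 to -0.58 with adjusted p at most 0.000861, and *Smn1* went from -0.49 to -0.43 with adjusted p at most 0.0440 in edgeR and DESeq2. *Sod1* and *Optn* kept theirs in 10 of 13 settings. The plot of fold changes with each library left out shows that *Hnrnpa2b1* and *Sod1* moved the most with the choice of KO library. The higher share of non-coding RNA in *Patz1* KO replicate 2 was not tested for a part in this.

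**Figure D3:**
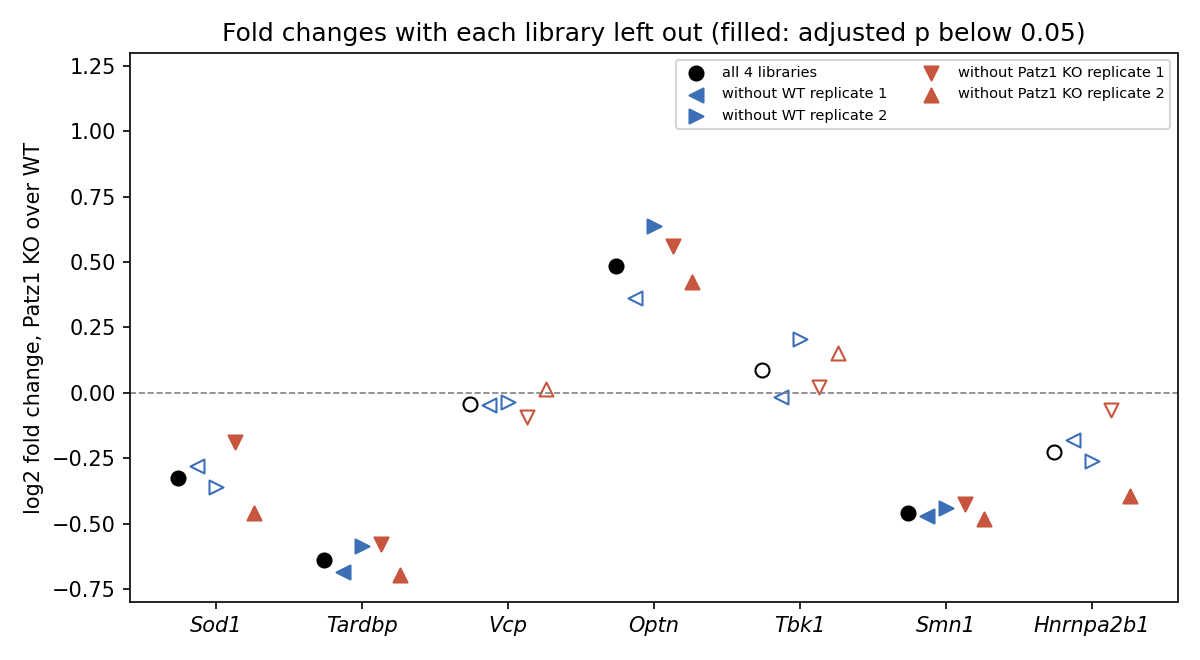
Log2 fold change of each gene, *Patz1* KO over WT (vertical axis), from all 4 libraries (circles) and with 1 library left out (triangles, coloured by the genotype of the library left out). Filled symbols passed an adjusted p of 0.05. With 1 library left out, the spread comes only from the genotype that keeps both of its libraries. *Tardbp* and *Smn1* stay filled throughout, *Sod1* loses its call without either WT library, *Optn* without WT replicate 1, and *Hnrnpa2b1* gains one without *Patz1* KO replicate 2.

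Levels were also divided by exon length, which gives a rough order between genes. In WT, *Vcp* was the highest at 157 ± 0.458 CPM per kb of annotated exon (SD, n = 2), followed by *Hnrnpa2b1* at 113 ± 4.68 and *Sod1* at 61.7 ± 2.59. *Tardbp* followed at 42.8 ± 1.96 CPM per kb, *Smn1* at 11.2 ± 0.154, *Tbk1* at 7.60 ± 0.812 and *Optn* at 1.99 ± 0.263. No 2 neighbours in this order overlapped in WT. In *Patz1* KO, *Smn1* came to 8.19 ± 0.232 CPM per kb and *Tbk1* to 8.06 ± 0.508, and the libraries of these neighbours overlapped. The other genes kept their place, with *Tardbp* at 27.4 ± 1.64, *Sod1* at 49.3 ± 6.66 and *Optn* at 2.81 ± 0.189 CPM per kb. The lengths are those of all annotated exons together, which include exons of long or rarely used transcripts. A gene with a short main transcript is therefore understated. For *Sod1* the length was 3970 bases over 2 annotated transcripts. Which transcripts were expressed was not determined, so the order between genes holds for these lengths only.

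By summed CPM, *Vcp* and *Hnrnpa2b1* took most of the reads of the 7 genes. The share of *Vcp* was 35.1% and 35.7% in WT and 43.2% and 37.1% in *Patz1* KO. *Tardbp* took 14.9% and 16.1% in WT and 11.5% and 11.6% in *Patz1* KO. *Optn* never exceeded 0.574%.

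Genes with the profile most like each member over the 4 libraries were found by the distance between centred log2 CPM, as a description over 4 samples. The nearest to *Tardbp* was *Bclaf1* (distance 0.0241), an RNA processing factor at 408 and 439 CPM in WT and 264 and 282 CPM in *Patz1* KO. *Smn1* was nearest to *Ythdc1* (0.00504), the nuclear reader of methylated adenosines in RNA, at 105 and 106 CPM in WT and 75.2 and 78.2 CPM in *Patz1* KO, and then to *Cwf19l1*. The nearest to *Sod1* were *Mrpl49* (0.0196), a mitochondrial ribosomal protein gene, and *Rbmx2*, and those to *Hnrnpa2b1* were *Slirp* (0.0294) and *Pdcd5*. *Optn* was nearest to *Caprin2* (0.0360) and *Pbx4*, *Tbk1* to *Klhdc9* (0.0119) and *Arhgap5*, *Vcp* to *Ncapd2* (0.00614) and *Tshz2*, and the second for *Tardbp* was *Sh3bgr*. All profiles shared the same libraries.

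Markers of cell types moved along with the genotype. Of 12 MN markers, 9 rose and 0 fell, and 3, among them *Isl1*, did not pass the test. Over all genes tested, 24.1% rose and 23.8% fell. *Chat*, which makes acetylcholine, rose by 0.99 on the log2 scale, *Mnx1* by 0.88, *Lhx4* by 0.87 and the intermediate filament gene *Prph* by 1.33, with adjusted p of at most 1.82e-06 in edgeR. The sum over all 12 markers was 2530 and 2275 CPM in WT and 3800 and 3271 CPM in *Patz1* KO, of which the neuronal tubulin gene *Tubb3* alone took 1777 and 1570 CPM and 2638 and 2203 CPM. The cholinergic genes *Chat*, *Slc18a3* and *Slc5a7* together were at 219 and 196 CPM for WT against 367 and 340 CPM for *Patz1* KO.

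Among 18 tested markers of other cell types, 9 fell and 5 rose, beside 23.8% and 24.1% of all genes tested. The sum went from 1328 and 1445 CPM in WT to 745 and 753 CPM in *Patz1* KO. The floor plate genes *Shh* and *Foxa2* fell by 2.99 and 2.35 on the log2 scale, *Pdgfra* of mesenchyme by 3.96 and *Dab2* of endoderm by 3.34. Most of that sum came from *Top2a* and *Mki67* of dividing cells, which together were at 975 and 1061 CPM in WT and 506 and 498 CPM in *Patz1* KO. Of the pluripotency markers, *Pou5f1* had at most 7 counts in any library and *Nanog* had 57, 75, 46 and 59. Of the glial markers, *Gfap* had at most 1 count, whereas *Aldh1l1* had 25 and 17 for WT against 276 and 101 for *Patz1* KO and rose by 2.69 on the log2 scale (adjusted p = 2.78e-06, edgeR). In these bulk samples fewer cells of a type and less RNA per cell cannot be told apart, and the part of cell composition in the changes of the 7 genes was not tested.

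A list of 23 hnRNP, FET and related genes encodes RNA-binding proteins like TDP-43 and hnRNP A2/B1. *Tia1*, *Tial1* and *Matr3* in it belong to neither the hnRNP nor the FET family. Of the 23 genes, 15 fell, 2 rose (*Tia1* and *Hnrnph2*) and 6 did not pass the test, with a median log2 fold change of -0.46. Over all genes 23.8% fell and 24.1% rose, and the median was -0.0014, which also holds as the background of the lists that follow. The 7 lists of partners described here and the marker lists above were written with earlier results of these libraries known. Their directions are therefore not independent evidence. *Hnrnpa1* fell by 1.56 on the log2 scale (35.02 ± 0.790 CPM in WT, 11.9 ± 0.890 CPM in *Patz1* KO, SD, n = 2, adjusted p = 1.31e-08, edgeR). Since 28.2% of its 50-base stretches occur in other annotated genes, its count is uncertain.

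*Hnrnph1* went from 771 ± 29.9 to 439 ± 10.1 CPM (SD, n = 2) and fell by 0.81 on the log2 scale, and the splicing repressor *Ptbp1* fell by 0.70 (adjusted p of at most 3.90e-06 in edgeR). The FET gene *Taf15* fell by 0.86 (adjusted p = 9.77e-06, edgeR). The 4 hnRNP A/B genes of this list all fell, a subgroup that was formed after its values were seen. The markers of dividing cells given above fell in the same libraries, and their part in these counts was not tested.

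The SMN complex and the proteins it assembles moved less uniformly. Of 21 genes, 8 fell, 4 rose (*Gemin8*, *Strap*, *Snupn* and *Coil*) and 9 did not pass the test, with a median of -0.13. Among the Sm proteins, *Snrpd1* fell by 0.56 on the log2 scale, *Snrpd3* by 0.52 and *Snrpb* by 0.43, with adjusted p of at most 0.000798 in edgeR. The 7 Sm core genes, grouped after their values were seen, had 4 that fell and 0 that rose, and their sum went from 1343 and 1279 CPM in WT to 922 and 1142 CPM in *Patz1* KO. *Strap*, the SMN-associated protein gene, rose by 0.50 (227 ± 7.25 CPM in WT, 320 ± 5.09 CPM in *Patz1* KO, SD, n = 2, adjusted p = 0.000184, edgeR).

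Among the direct partners of SMN, *Ddx20* (Gemin3) fell by 0.31 on the log2 scale (adjusted p = 0.0299, edgeR). *Gemin2*, the partner bound most tightly, had a log2 fold change of -0.13 (adjusted p = 0.493), and *Gemin5*, which recognises small nuclear RNAs, one of -0.11 (adjusted p = 0.367), both in edgeR. Neither passed the test, and *Gemin2* ranged from 11.6 to 13.8 CPM over all libraries.

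Of 27 genes of selective autophagy that work with optineurin and TBK1, 14 rose, 1 fell and 12 did not pass the test, with a median of 0.30, whereas 24.1% of all genes rose and 23.8% fell. *Gabarapl1*, which couples receptors to autophagosomes, rose by 1.26 on the log2 scale, from 128 ± 3.57 CPM in WT to 308 ± 37.0 CPM in *Patz1* KO (SD, n = 2, adjusted p = 1.31e-08, edgeR). Of its 50-base stretches, 23.1% are shared with *1700101I11Rik*, which had 6, 4, 13 and 15 counts in the 4 libraries. The mitophagy kinase *Pink1* rose by 0.80, the conjugation enzyme *Atg7* by 0.68 and *Map1lc3a*, an LC3 gene, by 0.63, with adjusted p of at most 3.02e-05 in edgeR.

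The receptor *Sqstm1* (p62) rose by 0.46 on the log2 scale (157 ± 4.48 CPM in WT, 216 ± 16.9 CPM in *Patz1* KO, SD, n = 2, adjusted p = 0.000379, edgeR), close in size to *Optn*. *Azi2*, an adaptor of TBK1, rose by 0.39 (adjusted p = 0.00142, edgeR). The gene that fell was *Ikbke*, a kinase related to TBK1, at 16 and 14 counts for WT against 2 and 0 for *Patz1* KO, which was named after its values were seen. MN markers rose in the same libraries, as given above, and their part in these counts was not tested.

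Of 25 genes of VCP cofactors and of the endoplasmic reticulum quality control they serve, including the chaperones *Hsp90b1* and *Hspa5*, 5 rose, 6 fell and 14 did not pass the test, with a median of -0.03. *Ubxn2b* fell by 0.78 on the log2 scale, *Hsp90b1* by 0.49, and *Svip* rose by 0.54 (adjusted p of at most 0.00185 in edgeR). Of the core adaptors, *Ufd1l* fell by 0.35 (62.9 ± 3.57 CPM in WT, 49.3 ± 2.50 CPM in *Patz1* KO, SD, n = 2, adjusted p = 0.00587, edgeR). Its partner *Nploc4* had a log2 fold change of -0.19 (adjusted p = 0.0946, edgeR), and *Nsfl1c*, the p47 adaptor, one of 0.0023 (adjusted p = 0.986, edgeR). The count of 11 called dropped to 6 without WT replicate 1, to 6 without WT replicate 2, and to 3 when a fold of over 1.2 was required.

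Around *Sod1*, 24 genes of superoxide and peroxide defence were tested. Of these 10 fell, 3 rose (*Prdx4*, *Gpx4* and *Keap1*) and 11 did not pass the test, with a median of -0.12. *Nfe2l2*, the transcription factor that drives antioxidant genes, fell by 1.18 on the log2 scale, from 29.7 ± 0.819 CPM in WT to 13.2 ± 0.284 CPM in *Patz1* KO (SD, n = 2, adjusted p = 3.67e-07, edgeR). *Prdx1* fell by 0.88 and *Srxn1*, which repairs oxidised peroxiredoxins, by 0.94, whereas *Prdx4* of the endoplasmic reticulum rose by 0.98 (adjusted p of at most 1.86e-05 in edgeR).

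*Ccs*, the chaperone that loads copper into SOD1, had a log2 fold change of 0.05 (24.5 ± 0.0613 CPM in WT, 25.3 ± 2.54 CPM in *Patz1* KO, SD, n = 2, adjusted p = 0.742, edgeR). The mitochondrial superoxide dismutase gene *Sod2* had one of 0.18 (adjusted p = 0.131, edgeR), and the extracellular *Sod3* had at most 2 counts per library and was not tested. Of the 13 genes called, 8 were called without WT replicate 2 and 6 when a fold of over 1.2 was required.

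Other ALS genes included more rises than falls. Of 29 tested, 14 rose, 6 fell (among them *Hnrnpa1*, *Ccnf*, *Tuba4a* and *Anxa11*) and 9 did not pass the test, with a median of 0.15. *Prph* was the largest rise of this list, at 1.33 on the log2 scale (65.0 ± 3.36 CPM in WT, 163 ± 11.9 CPM in *Patz1* KO, SD, n = 2, adjusted p = 3.30e-09, edgeR), and it is also an MN marker. *Dctn1*, a subunit of the dynactin motor complex, rose by 0.87 and the proteasome shuttle gene *Ubqln2* by 0.73, with adjusted p of at most 2.12e-06 in edgeR. The mouse counterpart of *C9orf72*, listed under its older symbol *3110043O21Rik*, rose by 0.43 (41.1 ± 0.260 CPM in WT, 55.4 ± 0.778 CPM in *Patz1* KO, SD, n = 2, adjusted p = 0.00118, edgeR).

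Of 19 other genes of SMA and lower MN disease, 4 rose (*Lmna*, *Atp7a*, *Gars* and *Ascc1*), 2 fell and 13 did not pass the test, with a median of 0.15. The kinase gene *Vrk1* fell by 0.59 on the log2 scale and the RNA exosome gene *Exosc8* by 0.47, whereas *Lmna* rose by 0.77 and the copper transporter *Atp7a* by 0.42 (adjusted p of at most 0.00103 in edgeR). *Uba1*, the ubiquitin-activating enzyme mutated in X-linked SMA, had a log2 fold change of 0.06 (696 ± 28.8 CPM in WT, 726 ± 54.3 CPM in *Patz1* KO, SD, n = 2, adjusted p = 0.656, edgeR). Its libraries overlapped between the genotypes.

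**Figure D4:**
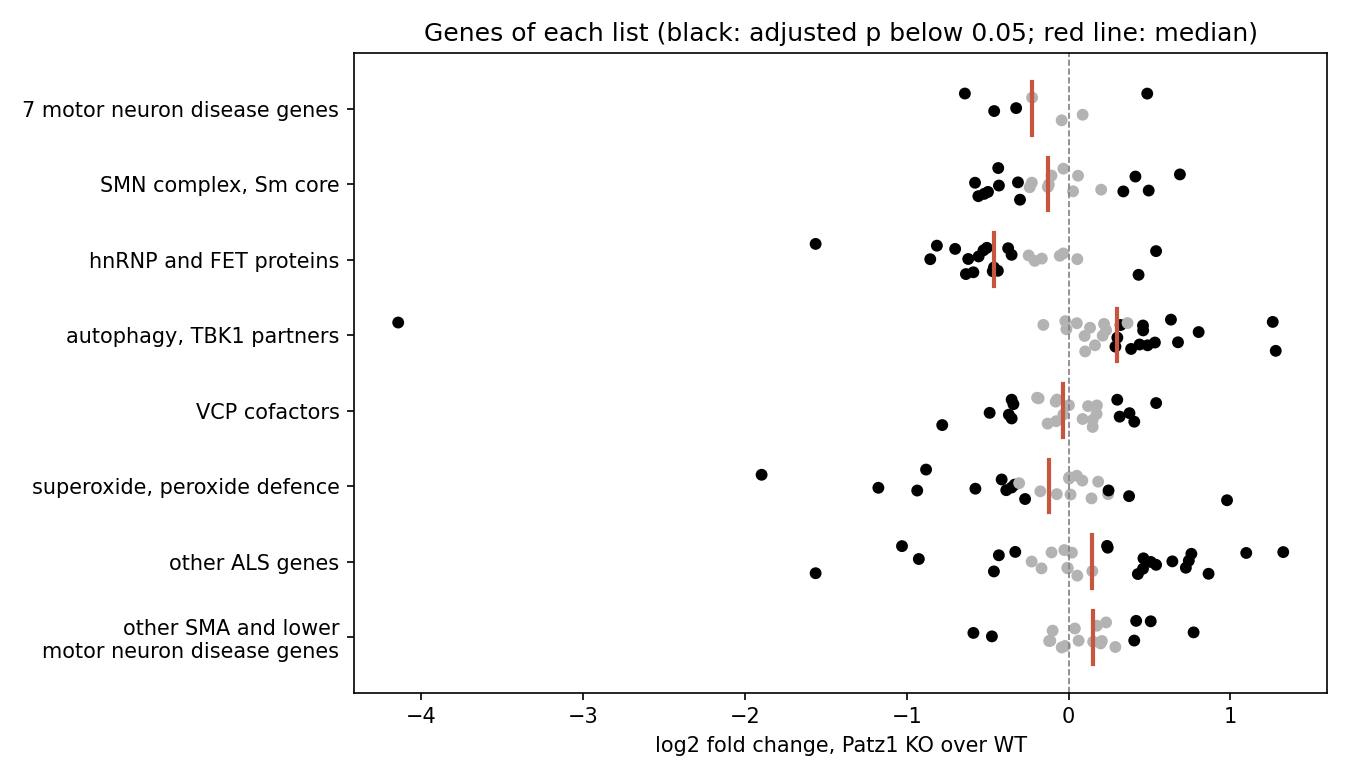
Log2 fold change, *Patz1* KO over WT (horizontal axis), of every tested gene in the 7 motor neuron disease genes and in the 7 lists around them, with 1 point per gene, black where the adjusted p was below 0.05, and a red line at the list's median. The hnRNP, FET and related genes lie mostly left of 0 (median -0.46) and the autophagy genes mostly right of it (median 0.30), apart from *Ikbke* at the far left.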

How the data were processed

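The authors deposited raw counts per gene symbol for each library, 2 WT and 2 *Patz1* KO, without normalization. The paper's methods give mapping to mm10 with Bowtie 2 and DESeq2's Wald test. The submitters' processing notes name TopHat2 2.1.1, Bowtie2 2.3.1, featureCounts 1.6.2 and DESeq2. The annotation and strand setting are not given in the sources used here.

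The counts were filtered with filterByExpr (minimum count 10), scaled by TMM and tested in edgeR 4.0.16 (limma 3.58.1, R 4.3.3) with the quasi-likelihood test and Benjamini-Hochberg adjustment over 14269 genes, with genotype as the only term. SEs were derived from each log2 fold change and its F statistic. Depth was 14769104 to 23881522 counts, and counting errors cover sampling of reads only. With 2 libraries per group, p values measure the spread between these libraries, helped by that of all genes. An exact permutation test of 2 against 2 libraries cannot pass 0.05, so none was run. Fits were tested on simulated data.

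The 7 genes and all lists were chosen with earlier results of these data known. Named were the 7 genes, *Patz1*, the 4 genes with the smallest p in each list, preset partners, the 2 genes nearest to each member by the distance of centred log2 CPM (prior count 2), and genes whose exons overlap a member. Genes listed by name beside a count of called genes were named after their values were seen. Some genes that are counted in the lists are not reported here by name. Alternatives were scaling by library size alone, by DESeq2 size factors or by TMM with the 20 most counted genes removed, no filter, at least 10 counts in every library, DESeq2 1.42.0, robust dispersion, a minimum fold of 1.2, the replicate number as a block, and leaving out each library. Positions, exon lengths and shared 50-base stretches came from GENCODE on GRCm38 (the assembly also called mm10), promoters from RefSeq, and the work used Python 3.11.15 with pandas 2.3.3 and matplotlib 3.10.9.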

Additional observations from a re-analysis of the deposited data

How the results depend on the processing

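Requiring a fold of over 1.2 ended the calls of *Sod1* (-0.32, adjusted p = 0.240) and *Optn* (0.49, adjusted p = 0.105) in edgeR and lowered the numbers called to 2 of the 7 genes, 4384 of all genes, 3 VCP cofactors and 6 superoxide and peroxide genes. DESeq2's Wald test called 3 of the 7 genes and 5121 of all genes, and *Optn* missed the threshold there (0.50, adjusted p = 0.113). With each library left out in turn, which leaves 1 group with a single library that is assumed to vary like the others, log2 fold changes went from -0.46 to -0.19 for *Sod1*, 0.36 to 0.64 for *Optn*, -0.094 to 0.016 for *Vcp*, -0.017 to 0.21 for *Tbk1* and -0.39 to -0.065 for *Hnrnpa2b1*. The direction turned for *Vcp* without *Patz1* KO replicate 2 (0.016) and for *Tbk1* without WT replicate 1 (-0.017), both short of the threshold. The numbers called went from 2 to 5 for the 7 genes, 4521 to 7816 for all genes, 6 to 13 for VCP cofactors and 8 to 15 for superoxide and peroxide genes. The cause of these shifts was not tested, although a required fold is a stricter call by construction. Scaling by library size alone moved the median of all genes to -0.03, and the called members kept their directions under each scaling.

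The libraries share replicate numbers in their titles, which were used here, whereas the names of the deposited counts number replicates differently. Deviations of same-numbered libraries from their group means correlated at only r = 0.0304 over 14269 genes, which are not independent. The numbers were therefore not taken to pair the libraries. With the replicate number as a block, 4 of the 7 genes and 7361 of all genes were called, and each of the 7 genes kept its call (*Sod1* -0.33, adjusted p = 0.00191, *Optn* 0.50, adjusted p = 0.0117, edgeR). Depth limits *Optn* the most, and 2 libraries per genotype limit every gene.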
